A study of Mus musculus with 22 samples.

Results

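The comparison described here set 3 RNA libraries of lung epithelial cells (ECs) labelled CYP1B1-/- against 4 wildtype (WT) libraries at steady state, over all protein-coding genes. These 7 libraries were chosen by their labels, out of 22 in the series. The ECs were sorted by flow cytometry as live CD45-EpCAM+ singlets after enzymatic digestion of the lung, with CD31+ cells also excluded per the methods of the study, and the mice of both groups were naive, with no house dust mite (HDM) instilled. WT mice were C57BL/6, and the CYP1B1-/- strain, which lacks the gene in the whole body and not only in ECs, had been backcrossed to that strain. The steady-state table also holds 3 libraries labelled as lacking the aryl hydrocarbon receptor (AhR-/-), which shared the estimate of the spread in the test. A second table holds 4 libraries labelled CYP1B1-/- and 4 WT libraries from mice with HDM-induced allergic airway inflammation, which share no library with the steady-state comparison. The labels do not say whether each library is 1 mouse, so the p-values measure the spread between these libraries. Of 21793 protein-coding genes in the table, 15547 had enough counts to be tested.

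CYP1B1 is a cytochrome P450 monooxygenase of the CYP1 family. The aryl hydrocarbon receptor (AhR), a ligand-activated transcription factor, pairs with ARNT on binding a ligand and switches on Cyp1a1, Cyp1a2 and Cyp1b1, whose enzymes in turn break down AhR ligands. In the lung these enzymes are best known for oxidizing inhaled aromatic compounds, and CYP1B1 also acts on steroids, retinoids and fatty acids. The question of the comparison was whether ECs without CYP1B1 differ in their transcriptome before any allergen is given.

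Total counts of the 7 libraries ranged from 10476829 to 17707000, and 3 counts, the floor used for a gene that is barely seen, corresponded to 0.181 to 0.301 CPM (counts scaled to an equal library size). All 7 libraries had an epithelial profile rich in alveolar type 1 (AT1) genes, with the 12 AT1 markers at a mean log2 CPM of 10.7 to 11. The CYP1B1-/- library of replicate 2 stood apart from the rest. It lay at 95.6 on the first principal component (34.9% of the variance), where the other 9 steady-state libraries lay between -32.2 and 17.3. Its mitochondrially encoded genes summed to 613 CPM, against 7272 to 13785 CPM in the other 9. In it, 27.3% of tested genes deviated at least 2-fold from the mean of the other libraries, against 2.36% to 11% of genes in each of the others. Its deviations also followed the GC content of the transcripts, with Spearman's rho over genes of 0.42 (others -0.31 to 0.27), a description since genes are not independent. The predicted gene Gm10800 held 29.2% of its counts, against 9.54% to 21.7%. Its 8 club cell markers summed to 613 CPM, against 1946 to 6401 CPM in the 6 other libraries of the comparison. Values without this library stand beside many of the results below. Among the WT libraries, replicate 4 lay at -53.6 on the second principal component (28% of the variance), the others at 19.6 to 52.6. Its rho with GC content was 0.27, against -0.31 to -0.20 in the other WT libraries. Of its tested genes 11% deviated at least 2-fold, against 2.36% to 6.82%.

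RNA of blood cells differed among the WT libraries. The hematopoietic markers (23 genes of a list of 24 are in the table) had a mean log2 CPM of 3.96, 2.47, 0.99 and -0.27 in WT replicates 1 to 4, and of 1.64, 0.35 and 0.23 in the CYP1B1-/- libraries of replicates 2, 3 and 4. Ptprc, which encodes the CD45 excluded by the sort, was counted at 79.8, 21.3, 7.88 and 2.65 CPM in WT and at 8.74, 2.87 and 5.07 CPM in the CYP1B1-/- libraries. Pecam1, which encodes the CD31 also excluded, ranged from 1.67 to 11 CPM in WT and from 0.667 to 3.11 CPM in CYP1B1-/-. Epcam, the epithelial adhesion molecule used for the sort, was at 131 to 194 CPM in WT and at 406, 178 and 204 CPM in CYP1B1-/-, a log2 fold change of 0.78 that was 0.33 without replicate 2.

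**Figure D1:**
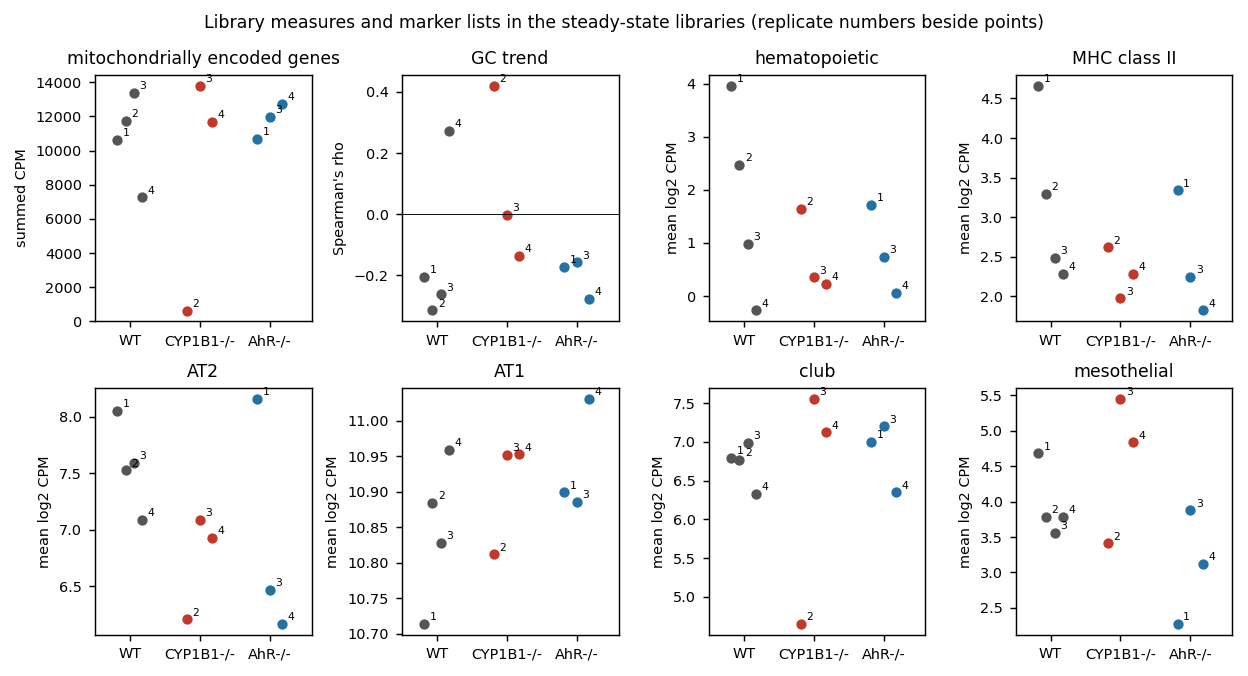
Each point is 1 steady-state library, with its replicate number beside it, in the WT, CYP1B1-/- and AhR-/- groups; the panels give the summed CPM of mitochondrially encoded genes, Spearman's rho between the library's deviation and transcript GC content, and the mean log2 CPM of 6 gene lists. CYP1B1-/- replicate 2 is the lowest library for mitochondrially encoded genes (613 CPM) and for club markers and the highest for the GC trend (0.42), and WT replicate 1 is the highest for hematopoietic markers (3.96).

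The targeted gene was read first. Cyp1b1 (ENSMUSG00000024087, chromosome 17, 79701537 to 79715061, GRCm38) was counted at 5.12, 7.60 and 8.05 CPM in the libraries labelled CYP1B1-/- and at 1.81, 2.81, 1.18 and 0.843 CPM in WT. All 3 knockout-labelled libraries lay above all 4 WT libraries, so the counts of the targeted gene went against the label. The difference was 2.07 on the log2 scale (standard error, SE, 0.47), with an unadjusted p of 0.000906 and, after Benjamini-Hochberg correction over all 15547 genes, an adjusted p of 0.822 in edgeR (quasi-likelihood). Without replicate 2 it was 2.25. Other tools gave adjusted p-values of 0.0381 (DESeq2, past the threshold), 0.0985 (likelihood ratio test of edgeR) and 0.0612 (limma voom). The deposited counts add up reads over all exons of a gene, so they do not tell a whole transcript from one that lacks some of its exons. The libraries are called by their labels throughout.

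AhR target genes were read next, since CYP1B1 sits in the same feedback loop. Tiparp, an ADP-ribosyltransferase that AhR induces and that represses AhR, was counted at 674, 238 and 277 CPM in the CYP1B1-/- libraries and at 104, 172, 138 and 227 CPM in WT. The 2 groups did not overlap, but the log2 fold change of 1.31 (SE 0.36) had an adjusted p of 0.822 in the edgeR test and was 0.69 without replicate 2. In AhR-/- Tiparp was at 225, 190 and 327 CPM, which overlapped both other groups. Ahr itself was at 17, 12.3 and 12.4 CPM against 9.69 to 16.6 CPM in WT, and its log2 fold change of 0.02 (SE 0.22) was near 0 and changed sign under other settings. In the libraries labelled AhR-/- it was at 24.7, 21.9 and 27.4 CPM, above every WT library (log2 fold change 0.85, unadjusted p = 0.00163 and adjusted p = 1.00 in edgeR), so the counts of that targeted gene went against its label too. Cyp1a1 was at 1.10, 0.133 and 0.241 CPM against 0.295 to 0.906 CPM. Cyp1a2 reached at most 0.301 CPM in CYP1B1-/- and 0.454 CPM in WT. Ahrr, the AhR repressor, ranged from 0.467 to 1.31 CPM against 0.301 to 0.788 CPM. These 3 genes did not pass the filter on low counts, and differences in them were not detectable at this depth. Nqo1, an AhR and NRF2 target, and Ptges3, the p23 cochaperone of the AhR complex, had log2 fold changes of -0.41 and 0.23 and overlapping libraries. Without replicate 2 these values were -0.19 and 0.09. Of 18 genes on the list of the AhR and CYP1 axis, 13 were tested, 0 passed the adjusted threshold in the quasi-likelihood test (Cyp1b1 did with DESeq2, as given above), and 2 (Cyp1b1 and Tiparp) had an unadjusted p under 0.05, both higher, against 5.8% of all genes (2.32% higher). The median log2 fold change of the 13 genes was 0.02, against -0.05 over all genes tested, and its sign changed under 7 of 20 alternative settings.

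Both of these genes carry in the 250 bases before their start site the letters GCGTG or, on the other strand, CACGC, the core of the site that AhR and ARNT bind, shown in capitals. The windows are from RefSeq on GRCm38.p6, written 5′ to 3′ on the gene's strand.
Cyp1b1 promoter, chr17:79715062-79715311, minus strand: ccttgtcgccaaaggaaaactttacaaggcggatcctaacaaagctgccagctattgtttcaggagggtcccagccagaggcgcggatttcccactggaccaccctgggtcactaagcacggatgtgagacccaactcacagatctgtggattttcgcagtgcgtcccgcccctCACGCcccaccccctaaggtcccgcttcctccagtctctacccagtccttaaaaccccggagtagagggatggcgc
Tiparp promoter, chr3:65528197-65528446, plus strand: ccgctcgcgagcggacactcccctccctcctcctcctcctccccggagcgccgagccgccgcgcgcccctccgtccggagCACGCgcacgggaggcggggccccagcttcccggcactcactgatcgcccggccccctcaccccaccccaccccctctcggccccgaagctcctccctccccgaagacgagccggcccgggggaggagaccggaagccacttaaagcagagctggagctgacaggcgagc
Each window holds 1 match, starting 76 bases before the start site in Cyp1b1 and 170 bases before it in Tiparp. Of 32817 windows of this length before RefSeq start sites, 28.1% hold at least 1 match, and of the 14 genes of the list that have a window, 7 do. A gene of the list counted if any of its windows held a match, while the 28.1% is over single windows, so the shares are not like measures. Such a match is a description of the letters and not a measured binding site.

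At an adjusted p of at most 0.05, 2 of 15547 protein-coding genes (0.0129%) separated the libraries labelled CYP1B1-/- from WT. Rab4a rose and Srbd1 fell. The other genes had adjusted p-values of 0.141 or more. At an unadjusted p under 0.05 stood 901 genes (5.8%), of which 360 (2.32%) were higher and 541 (3.48%) lower in CYP1B1-/-. Without CYP1B1-/- replicate 2, 4 of 15831 genes passed (0.0253%), 2 higher (0.0126%) and 2 lower (0.0126%). The split of 360 higher and 541 lower genes at an unadjusted p under 0.05 was not stable. It was 475 higher and 461 lower with RLE normalization in place of TMM, 417 and 210 with the hematopoietic marker level as a covariate, 712 and 389 without CYP1B1-/- replicate 3 and 996 and 449 without CYP1B1-/- replicate 4. With 1 library left out the total lay between 384 (without WT replicate 1) and 2233 (without WT replicate 4).

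Rab4a (ENSMUSG00000019478, chromosome 8, 123805985 to 123835287) encodes a small GTPase of early endosomes that returns internalized receptors to the plasma membrane. It was counted at 27.9, 16 and 16.7 CPM in CYP1B1-/- and at 3.53, 2.72, 3.64 and 4.64 CPM in WT, which gave means of 20.2 ± 6.67 (SD, n = 3) and 3.63 ± 0.784 (SD, n = 4). The lowest CYP1B1-/- library was far above the highest WT library. The log2 fold change was 2.46 (SE 0.27, adjusted p = 0.0139, edgeR quasi-likelihood test), and 2.17 without replicate 2, with an adjusted p of 0.00119 in that edgeR fit. None of its 50-base stretches occurs in transcripts of another gene and no other annotated gene overlaps its exons. In the AhR-/- libraries Rab4a was at 13.5, 8.94 and 8.39 CPM, between the other 2 groups. The difference between CYP1B1-/- and AhR-/- was 0.97 on the log2 scale (SE 0.28, unadjusted p = 0.0043 and adjusted p = 0.936 in edgeR). Against the same WT libraries, a contrast with 1.69% of genes at an unadjusted p under 0.05, AhR-/- had a log2 fold change of 1.49 (SE 0.27, adjusted p = 0.480 in edgeR).

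Srbd1 (ENSMUSG00000024135, chromosome 17, 85984665 to 86145175) encodes a protein with an S1 RNA-binding domain. It was counted at 2.91, 4.07 and 3.46 CPM in CYP1B1-/- and at 8.78, 10.9, 12.5 and 13.2 CPM in WT, which gave means of 3.48 ± 0.579 (SD, n = 3) and 11.3 ± 1.96 (SD, n = 4). The groups did not overlap. Srbd1 fell by 1.70 on the log2 scale (SE 0.21, adjusted p = 0.0237, edgeR quasi-likelihood test), and without replicate 2 the log2 fold change was -1.58 with an adjusted p of 0.0107 in edgeR. The AhR-/- libraries, at 12.9, 12.8 and 12.2 CPM, lay with WT. Srbd1 was the only gene of 15547 (0.00643%) past the threshold between CYP1B1-/- and AhR-/-, where 4.23% of genes had an unadjusted p under 0.05. Its log2 fold change there was -1.85 (SE 0.22, adjusted p = 0.0301 in edgeR). This contrast compares the same CYP1B1-/- libraries with no WT library, but the WT libraries shared the estimate of the spread. With 1 library left out at a time, Srbd1 passed there only without CYP1B1-/- replicate 2.

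When 1 library was left out at a time, Rab4a passed in 3 of 7 fits and Srbd1 in 2 of 7. Neither passed without WT replicate 2, 3 or 4, nor in a fit of the CYP1B1-/- and WT libraries alone. Both also missed the threshold with the replicate number as a block. Rab4a also missed the threshold without WT replicate 1, and Srbd1 without CYP1B1-/- replicate 3 or 4. In these 7 fits the log2 fold change of Rab4a stayed between 2.17 and 2.64, with adjusted p-values of 0.00119 to 0.118 in edgeR. That of Srbd1 stayed between -1.83 and -1.58, with adjusted p-values of 0.0107 to 0.203 in edgeR.

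Rell1 (chromosome 5, 63908897 to 63968897), a relative of the TNF receptor family member RELT, had the next lowest p-value. It was counted at 22.8, 14.7 and 15.5 CPM in CYP1B1-/-, at 45.0, 40.7, 39.9 and 41.4 CPM in WT and at 38.1, 52.4 and 42.8 CPM in AhR-/-. Every CYP1B1-/- library lay below every library of the other 2 genotypes. The log2 fold change against WT was -1.24 (SE 0.19) with an adjusted p of 0.141 in edgeR, and -1.46 with an adjusted p of 0.00119 in edgeR without replicate 2. On all libraries Rell1 passed with other tools, at adjusted p-values of 0.000103 (likelihood ratio test of edgeR), 3.06e-05 (DESeq2) and 0.000671 (limma voom). Of its 50-base stretches, 1.61% occur in Gm15819, which overlaps it on the opposite strand.

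**Figure D2:**
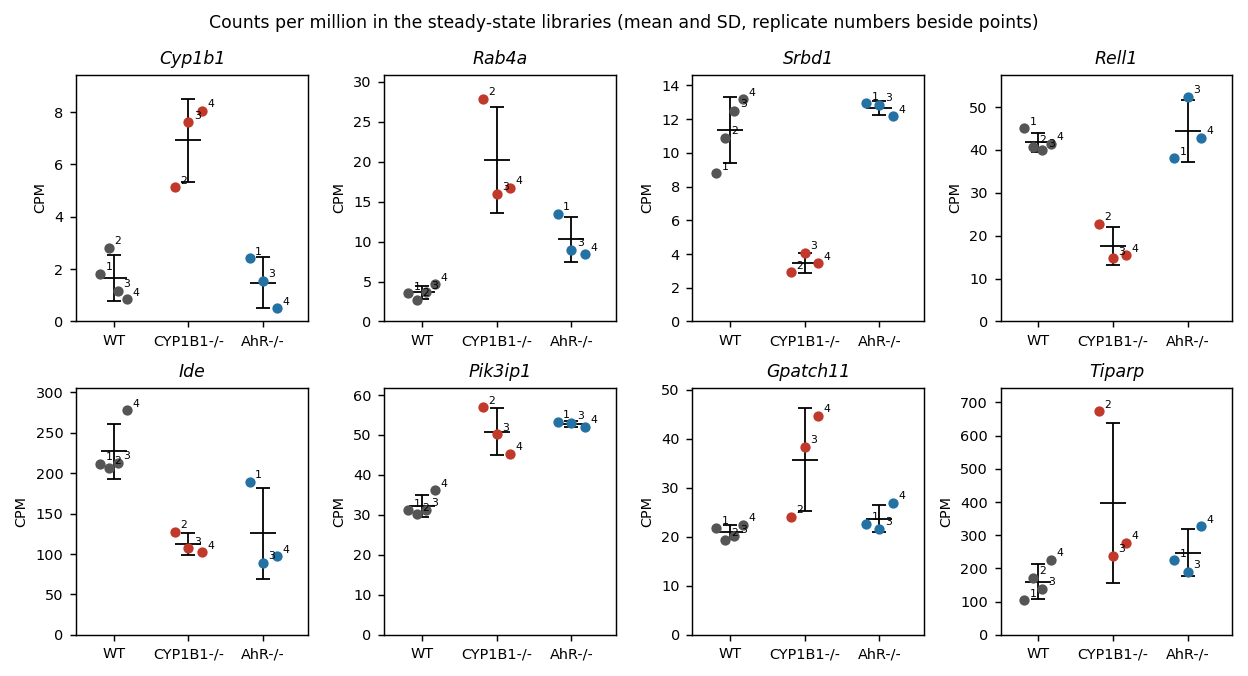
CPM of 8 genes in each steady-state library, with the replicate number beside each point and the mean and SD of the group in black; every axis starts at 0. Rab4a is highest in the 3 CYP1B1-/- libraries (16 to 27.9 CPM) and intermediate in AhR-/-, while Srbd1 (2.91 to 4.07 CPM) and Rell1 are low in CYP1B1-/- alone of the 3 groups.

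In all, 477 of the tested genes (3.07%) had CYP1B1-/- and WT libraries that did not overlap, 250 of them higher (1.61%) and 227 lower (1.46%). Of the 10 such genes of lowest p in each direction, those other than Rab4a and Srbd1 did not pass the adjusted threshold in the quasi-likelihood test, and the values of those reported here follow as a description.

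Among those with higher counts in CYP1B1-/-, Pik3ip1, an inhibitor of phosphoinositide 3-kinase, was at 56.9, 50.2 and 45.3 CPM against 31.2, 30.1, 31.2 and 36.2 CPM in WT, a log2 fold change of 0.66 (SE 0.14). Its level in AhR-/- was 52.0 to 53.2 CPM, so the CYP1B1-/- libraries overlapped with AhR-/- and not with WT. Pik3ip1 passed with DESeq2 (adjusted p = 0.0202) and limma voom (adjusted p = 0.0381). Gpatch11, which encodes a G-patch protein, was at 24.1, 38.3 and 44.6 CPM against 19.3 to 22.4 CPM in WT, a log2 fold change of 0.77. Without replicate 2, the lowest of the 3 for this gene, its log2 fold change was 0.99 and its adjusted p was 0.0108 in edgeR, and on all libraries limma voom gave an adjusted p of 0.00657.
Sfrp2, a secreted Wnt modulator, was at 41.8, 21 and 12.8 CPM against 4.53 to 8.85 CPM in WT, a log2 fold change of 2.06, and of 1.50 without replicate 2. Nid2, a nidogen of the basement membrane, had a log2 fold change of 1.44, Fndc1, a fibronectin type III domain protein, 1.44, and Adam33, a membrane metalloprotease, 1.25. All 3 were counted at 7.34 CPM or less in every one of the 7 libraries. Rgcc, a regulator of the cell cycle, was at 915 to 1663 CPM against 503 to 725 CPM (log2 fold change 0.99, and 0.71 without replicate 2), and Dixdc1, a DIX domain protein of the Wnt pathway, at 23.1 to 28.2 CPM against 14.4 to 19.5 CPM. Of the 50-base stretches of Sfrp2 12.0% occur in transcripts of another gene, and 7.50% of those of Nid2, so the counts of these 2 genes are less certain.

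Among those with lower counts, Ide, which encodes the insulin-degrading metalloprotease, was at 127, 107 and 102 CPM in CYP1B1-/- against 212, 207, 213 and 278 CPM in WT, a log2 fold change of -1.02 (SE 0.25). In AhR-/- it was at 190, 89.4 and 97.1 CPM, with 2 of 3 libraries below every CYP1B1-/- library.
Gabra2, a subunit of the GABA-A receptor, was at 11.9 to 19.3 CPM against 22.5 to 42.1 CPM, and Pcsk1, a prohormone convertase, at 7.43 to 13.1 CPM against 15.0 to 27.0 CPM. Both had log2 fold changes near -1 (-1.05 and -1.02). The cGMP-dependent kinase gene Prkg2 (-1.39), the transcription factor gene Maf (-1.0) and the T cell adaptor gene Skap1 (-0.98) were at under 10 CPM in all 7 libraries. WT replicate 4 was the lowest WT library for Gabra2, Pcsk1, Prkg2, Maf and Skap1. It was also the lowest of the 4 in hematopoietic markers and in the summed alveolar type 2 and club cell markers. With the hematopoietic marker level as a covariate, the log2 fold changes of these genes were -0.91, -0.97, -1.19, -0.86 and -0.78, in that order. Among lower genes with separate groups and an unadjusted p under 0.01, the largest fold changes were those of Fpr2, a formyl peptide receptor (-1.81), Gm5108 (-1.75), Srbd1 (-1.70), Gas2l2, a gene of ciliated cells (-1.69), and Cd200r1, an inhibitory receptor of myeloid cells (-1.65). Apart from Srbd1, these genes did not exceed 5.98 CPM in any of the 7 libraries. Of the 50-base stretches of Fpr2, 31.5% occur in other transcripts. The largest among higher genes were those of Rab4a, Cyp1b1, Sfrp2, Nid2 and Fndc1.

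**Figure D3:**
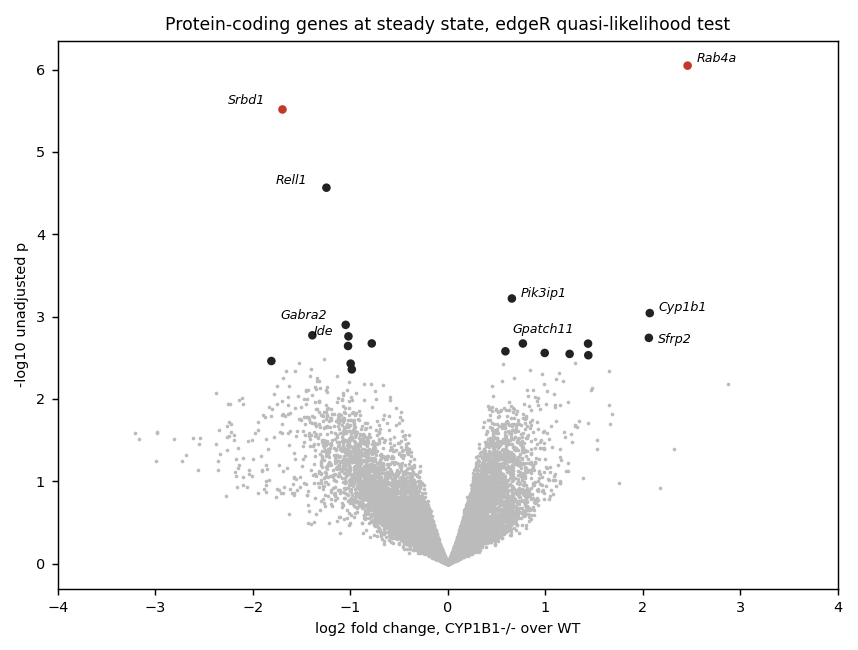
Each point is 1 of 15547 protein-coding genes, with the log2 fold change of CYP1B1-/- over WT on the x axis and the negative log10 of the unadjusted p of edgeR's quasi-likelihood test on the y axis; the 2 genes past the adjusted threshold are red and the other 18 genes of lowest p with separate groups are black. Rab4a, Srbd1 and Rell1 stand above all other genes, which have adjusted p-values of 0.822 or more.

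The HDM libraries gave each of these genes values in a separate set of libraries. The HDM table was normalized on its own and is named as another run, so levels are compared only within it. Of 14161 genes tested there between CYP1B1-/- and WT, 0 passed the adjusted threshold in edgeR, 233 (1.65%) had an unadjusted p under 0.05, and DESeq2 called 1 gene, F830016B08Rik. Of the 20 genes of lowest p named above for steady state, 19 were tested after HDM. In 14 of them the difference had the same sign as at steady state, against 46.0% of all 13567 genes tested in both states, and in 4 it also had an unadjusted p under 0.05. Of all 901 genes at an unadjusted p under 0.05 at steady state, 741 were tested after HDM, and only 280 of these (37.8%) had the same sign, a smaller share than among all genes. The 4 genes were Rab4a, Srbd1, Cyp1b1 and Ide. Pcsk1 had such a p in the opposite direction.

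After HDM, Rab4a was counted at 2.81, 5.47, 0.910 and 3.56 CPM in CYP1B1-/- and at 1.16, 0.681, 0.612 and 0.696 CPM in WT, a log2 fold change of 1.88 (SE 0.50, unadjusted p = 0.00224 and adjusted p = 0.999 in edgeR). The lowest of the 4 CYP1B1-/- libraries lay within the WT range. Srbd1 was at 3.16, 2.14, 6.20 and 3.48 CPM against 7.45, 6.36, 8.77 and 10.8 CPM, a log2 fold change of -1.11 (SE 0.30, unadjusted p = 0.00304 and adjusted p = 0.999 in edgeR). Its groups did not overlap in either state, as those of 1.19% of all genes did not after HDM. Cyp1b1, at 8.26, 11.2, 3.34 and 3.33 CPM against 0.567 to 2.04 CPM, also separated the labels in both states. Ide was at 23.0, 20.7, 37.0 and 38.1 CPM against 38.0, 61.1, 75.2 and 88.4 CPM, a log2 fold change of -1.14 (SE 0.34, unadjusted p = 0.0054 and adjusted p = 0.999 in edgeR).
Rell1 was at 17.8 to 23.2 CPM in CYP1B1-/- against 22.3 to 27.9 CPM in WT after HDM, a log2 fold change of -0.24 (SE 0.19). The corresponding values of Gpatch11, Pik3ip1 and Tiparp were 0.22, 0.13 and -0.01. Pcsk1 had a log2 fold change of 1.67 after HDM and of -1.02 at steady state. In the test of the difference between the states, 0 of 16639 genes passed in edgeR or in DESeq2, with 382 (2.3%) and 590 at an unadjusted p under 0.05. Pcsk1 had an unadjusted p of 0.000343 there, F830016B08Rik 0.00112, Nid2 0.00183 and Rell1 0.0137, all with adjusted p-values of 1.00 in edgeR.
F830016B08Rik was at 0.301 to 0.724 CPM against 0.361 to 1.27 CPM at steady state, with overlapping libraries, and at 4.2 to 12.6 CPM against 0.408 to 1.36 CPM after HDM.

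**Figure D4:**
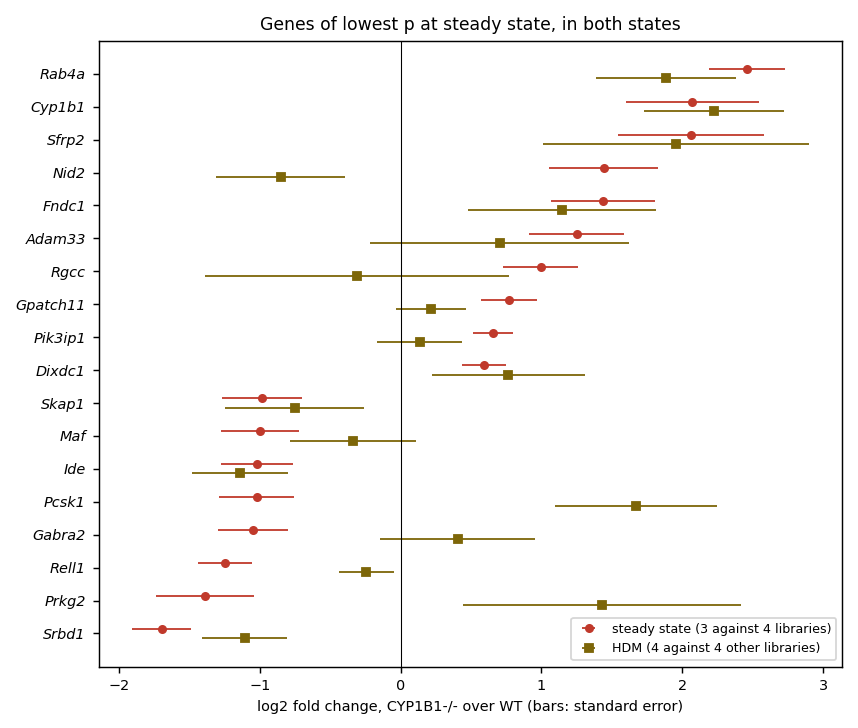
Log2 fold change of CYP1B1-/- over WT with its standard error for 18 of the 20 genes of lowest p with separate groups at steady state, at steady state (circles) and after HDM (squares), which share no libraries. Rab4a, Cyp1b1, Sfrp2, Ide and Srbd1 lie on the same side in both states, while Pcsk1, Prkg2, Gabra2, Nid2 and Rgcc lie on opposite sides; chosen by their steady-state p, the genes carry large steady-state values by construction.

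Srbd1 lies 6.28 Mb from Cyp1b1 on chromosome 17, and genes within 10 Mb of the targeted gene were therefore counted. Of 91 tested genes in this window, 13 (14.3%) had an unadjusted p under 0.05, 10 of them higher and 3 lower. Over all genes the share was 5.8% (2.32% higher and 3.48% lower). The median log2 fold change in the window was -0.03, so the window as a whole did not move in 1 direction. Its sign changed under 6 of the alternative settings, with values from -0.079 to 0.063. Without replicate 2 the count was 11 higher and 2 lower, against 7.44% of all genes in either direction, 3.28% higher and 4.16% lower. Besides Cyp1b1 and Srbd1 these included Gpatch11 and Heatr5b, 0.866 and 0.949 Mb away, with log2 fold changes of 0.77 and 0.46 and separate groups, and Eml4, Lrpprc, Lpin2 and Epcam, with log2 fold changes of 0.50 to 0.98. Without replicate 2 the value of Lpin2 moved from 0.98 to 0.50, that of Epcam from 0.78 to 0.33, that of Eml4 from 0.50 to 0.30 and that of Lrpprc from 0.58 to 0.35. Of the 13 genes, 8 had the same sign after HDM, and 2 of these, Srbd1 and Cyp1b1, an unadjusted p under 0.05. The same count around Rab4a, on another chromosome, found 8 of 124 tested genes (6.45%, Rab4a itself included), a share near that of all genes, with 7 higher and 1 lower, among them Maf, Tsnax and Hsdl1. Without CYP1B1-/- replicate 2 that split was 3 higher and 2 lower, and the median of the window went from 0.03 to -0.05.

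**Figure D5:**
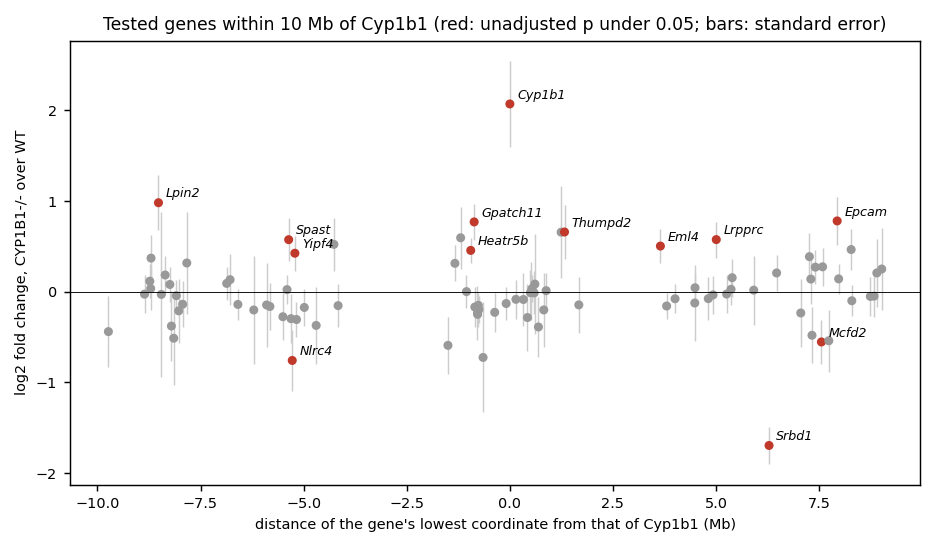
Log2 fold change of CYP1B1-/- over WT at steady state, with standard error, for the 91 tested genes within 10 Mb of Cyp1b1, against their distance from it on chromosome 17; genes with an unadjusted p under 0.05 are red and named. Cyp1b1 (2.07) and Srbd1 (-1.70), 6.28 Mb away, lie outside the range of the other genes, which stay within about 1 of 0.

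Rab4a belongs to a list of 34 endosomal recycling genes, which covers Rab GTPases, their effectors and sorting cargo. All 34 were tested, and 1 passed the adjusted threshold (Rab4a). With Rab4a itself included, 4 had an unadjusted p under 0.05 with higher and 1 with lower counts, against 5.8% of all genes (2.32% higher and 3.48% lower). The list was read because Rab4a had passed, so that gene's place in these counts is no separate result. Without replicate 2 these were 2 higher and 1 lower, against 7.44% of all genes. The effectors Rabep2 and Rabep1, which link Rab4 and Rab5 vesicles, had log2 fold changes of 0.44 and 0.66, and Rab11fip1, an effector of Rab11, 0.47. Rabep1 was at 102 CPM in replicate 2 and at 48.7 and 47.2 CPM in the other CYP1B1-/- libraries, against 36.8 to 48.6 CPM in WT, and its value was 0.21 without replicate 2. For Rab11fip1 that value was 0.20, and for Rabep2 it was 0.32. The lower gene was Tfrc, the transferrin receptor, a classical recycling cargo, at 15.8, 41.3 and 36.4 CPM against 43.8 to 51.2 CPM. The list's median log2 fold change was 0.05, against -0.05 over all genes. It lay between -0.005 and 0.13 under other settings and changed sign in 2 of them.

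Clock genes form interlocked feedback loops in which the REV-ERB receptors, encoded by Nr1d1 and Nr1d2, repress Arntl. Of 22 clock genes tested, 0 passed, while Nr1d2, Cry2 and Per3 had an unadjusted p under 0.05 with higher counts and Bhlhe40 with lower counts, against 5.8% of all genes. Nr1d2 was at 126, 47.9 and 77.2 CPM against 30.3 to 58.2 CPM in WT (log2 fold change 1.02, adjusted p = 0.822 in edgeR), and the value was 0.60 without replicate 2. Cry2 was at 378 CPM in replicate 2 and at 138 and 164 CPM in the other CYP1B1-/- libraries, against 117 to 147 CPM in WT. Without replicate 2, 0 of the clock genes had an unadjusted p under 0.05, against 7.44% of all genes. Nr1d1 was at 22.4 to 65.7 CPM against 14.4 to 49.7 CPM and Cry1 at 25.5 to 68.4 CPM against 33.6 to 48.1 CPM, both with overlapping groups. Bhlhe40 was at 3.62 to 7.0 CPM against 8.07 to 17.9 CPM. The collection time of each library is not given in the labels.

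Sterol and fatty acid synthesis is driven by SREBP factors. Of 26 such genes tested 0 passed, and 4 had an unadjusted p under 0.05, all with lower counts in CYP1B1-/-, against 5.8% of all genes (3.48% lower). Without replicate 2 there were 1 higher and 3 lower, against 7.44%. The 4 genes included Dhcr7, the last enzyme of cholesterol synthesis, at 4.42, 3.87 and 4.19 CPM against 5.99 to 6.61 CPM, the desaturase gene Scd1 at 193 to 261 CPM against 227 to 840 CPM, and Sqle, squalene epoxidase, at 13.7 to 17.6 CPM against 14.1 to 26.4 CPM. The Dhcr7 groups did not overlap (log2 fold change -0.61, SE 0.22, adjusted p = 0.822 in edgeR). The median over the list was -0.23, and -0.05 without replicate 2.

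Genes of immune cells were counted next. Of 21 hematopoietic markers tested, 0 passed and 7 had an unadjusted p under 0.05, all lower, against 5.8% of all genes (3.48% lower), with a median log2 fold change of -1.80. Without replicate 2 the count was 3, against 7.44% of all genes, and the median -2.41. Without WT replicate 1 the median was -0.62. AhR-/- against WT had a median of -1.99 for the same list, and CYP1B1-/- against AhR-/- one of -0.11. The B cell genes Ms4a1 and Cd79b and the leukocyte gene Cd53 were highest in WT replicate 1, at 19.5, 8.60 and 31.6 CPM, and at 1.81, 0.843 and 1.08 CPM in WT replicate 4, close to the CYP1B1-/- range of 0.402 to 3.06 CPM. The summed level of the list was 394 to 887 CPM in WT and 390 to 429 CPM in CYP1B1-/-, and 0 of its genes were at 0 in all libraries of either group. In this as in every bulk sample, fewer cells of a type and less RNA per cell cannot be told apart.

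The MHC class II genes, whose products present peptides to T helper cells, were highest in WT replicate 1, as the hematopoietic markers were. Of 9 tested, 0 passed and 5 had an unadjusted p under 0.05, all lower, against 5.8% of all genes. Without CYP1B1-/- replicate 2 the count was 1, against 7.44%. H2-Aa was at 6.93, 15.8 and 13.9 CPM in CYP1B1-/- and at 82.1, 33.1, 25.1 and 19.9 CPM in WT, a log2 fold change of -1.70 (SE 0.61, adjusted p = 0.822 in edgeR). Without WT replicate 1 that of H2-Aa was -1.08 and that of Ctss -1.36 in place of -3.16, and the median of the list was -0.54. Cd74, the invariant chain, was at 69.0 to 95.5 CPM against 92.4 to 294 CPM, H2-Eb1 at 6.07 to 8.23 CPM against 8.01 to 48.3 CPM, and Ctss, the protease that trims the invariant chain, at 2.40 to 3.72 CPM against 1.08 to 81.0 CPM. With the hematopoietic marker level as a covariate the list's median log2 fold change moved from -1.37 to -0.38, and 0 of its genes then had an unadjusted p under 0.05, against 4.03% of all genes. AhR-/- against WT had a list median of -0.76, and CYP1B1-/- against AhR-/- one of -0.34.
Of 28 epithelial alarmins and chemokines, 13 passed the filter on low counts, 0 passed the threshold, and Il6, Cxcl2 and Il1rn had an unadjusted p under 0.05 with lower counts, against 5.8% of all genes (3.48% lower). Il6 was at 0.502 to 1.05 CPM against 0.723 to 3.35 CPM, Cxcl2 at 0.400 to 0.803 CPM against 0.903 to 1.99 CPM, and Il1rn at 0.600 to 0.904 CPM against 0.723 to 3.98 CPM. Cxcl1 was at 0.402 to 0.734 CPM against 0.843 to 1.18 CPM. In CYP1B1-/- these levels are within a few multiples of the floor, and in WT replicate 1 Il6 and Il1rn are well above it. The list's median was -0.88, -0.59 without WT replicate 1, -0.14 over genes with at least 10 counts in every library, and -0.36 with the covariate, when 1 gene kept an unadjusted p under 0.05 with lower counts. For the same list AhR-/- against WT had a median of -0.50, and CYP1B1-/- against AhR-/- one of -0.19. The part of blood-cell RNA in these values was not tested beyond that covariate.

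Epithelial cell type markers showed no gene past the threshold. Of 12 markers of alveolar type 2 (AT2) cells, the surfactant-producing cells, only Lyz2 had an unadjusted p under 0.05, with lower counts. That compares with 5.8% of all genes (3.48% lower). Without replicate 2 there were 0, against 7.44% of all genes. Lyz2 is also made by macrophages. Lyz2 was at 224, 543 and 474 CPM against 567 to 1777 CPM. Sftpa1 was at 191, 919 and 651 CPM against 798 to 1853 CPM, Sftpd at 23.7 to 102 CPM against 94.6 to 193 CPM, and Napsa at 26.8 to 30.6 CPM against 38.4 to 70.7 CPM. The median log2 fold change of the AT2 list was -0.84, against 0.01 for 12 AT1 markers and 0.17 for 8 club cell markers, the last 2 of which changed sign under other settings. The AT2 median was -0.61 without replicate 2 and -0.47 with the hematopoietic covariate, and after HDM it was 0.78. At steady state AhR-/- against WT had an AT2 median of -0.40, and CYP1B1-/- against AhR-/- one of -0.47. WT replicate 1 was the highest of the 7 libraries for both the AT2 and the hematopoietic markers. The summed AT2 level was 3850 to 10373 CPM in WT and 1506, 4802 and 3656 CPM in CYP1B1-/-.
Of 6 tested markers of mesothelium, the outer lining of the lung, 0 passed, and Wt1 and Lrrn4 had an unadjusted p under 0.05 and separate groups, against 5.8% of all genes (2.32% higher). The summed level of the list was 353, 1556 and 1476 CPM in CYP1B1-/- replicates 2, 3 and 4 and 1146 to 1233 CPM in WT, so replicate 2 lay below every WT library and the other 2 above. Wt1, a transcription factor of mesothelial cells, was at 3.51, 5.00 and 2.66 CPM against 1.14 to 2.45 CPM, and Lrrn4 at 16.3, 27.3 and 20.1 CPM against 5.22 to 14.3 CPM. Upk3b and Upk1b were at 6.02, 38.7 and 20.9 CPM and at 2.01, 22.8 and 12.7 CPM against 5.71 to 19.6 CPM and 3.64 to 9.51 CPM, with overlapping groups. The list's median log2 fold change was 1.15, 1.35 without replicate 2 and 1.14 after HDM, but 0.42 without CYP1B1-/- replicate 3.

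The remaining 13 pathway lists, which cover other P450 and conjugating enzymes, retinoid, steroid, eicosanoid and tryptophan metabolism, NRF2, interferon, junction, TGF-beta, innate receptor, immediate early, unfolded protein and replication genes, held 313 tested genes. None of these passed, and 14 (4.47%) had an unadjusted p under 0.05, 8 higher and 6 lower, against 5.8% of all genes. Without CYP1B1-/- replicate 2 there were 20 higher and 11 lower of 322, against 7.44% of all genes (3.28% higher and 4.16% lower). Of 34 other P450 and conjugating enzymes 7 were higher, and of 30 interferon-response genes 5 were higher and 1 lower. Of 30 junction genes 4 were higher, and of 26 Toll-like and NOD-like receptor genes 4 were lower. Their median log2 fold changes ranged from -0.47 to 0.12. The 9 other marker lists held 74 tested genes, of which 0 passed and 3 had an unadjusted p under 0.05, 1 higher and 2 lower, and without replicate 2 there were 1 higher and 6 lower of 77.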

How the data were processed

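RNA was isolated from sorted lung ECs and turned into unstranded, tagmented poly(A)-primed libraries. Per the submitters' processing notes the authors used bcl2fastq (2.19.1), GSNAP and featureCounts (2.0.0), with bbduk trimming, the mm10 genome and Ensembl annotation; strand and multimapping settings are not given in the sources used here. The deposited values are raw counts of reads per gene. No deposited column held a comparison by the authors.

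Of 54373 genes listed, 54147 matched GENCODE M21 on GRCm38, and 21793 of these were protein-coding. Low genes were removed by filterByExpr, set to a count of 10 and a total of 15. All 10 steady-state libraries were fitted together in edgeR 4.0.16 (R 4.3.3), with TMM scaling and the robust quasi-likelihood test, so that the groups shared 1 estimate of the spread. A gene passed at a Benjamini-Hochberg adjusted p of at most 0.05. CPM used TMM-scaled protein-coding totals, and standard errors came from the fold change and the F statistic. HDM libraries were fitted separately, and both tables together for the difference between states, where state and run cannot be told apart. The scripts were tested on simulated data. The floor of 3 counts and the intervals cover counting error only.

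Alternatives were a likelihood ratio test, DESeq2 1.42.0, limma 3.58.1 voom with sample weights, a replicate block, other scalings and filters, all gene types, the compared groups only, a hematopoietic marker covariate and leaving out each library. Named genes were the CYP1 and sorting genes, genes past the threshold, the 10 non-overlapping genes of lowest p and the 5 of largest change in each direction, up to 4 members of lowest p per reported list, and genes the study names. Heatr5b, Eml4, Lrpprc and Tfrc were named after their values were seen. Some genes that the rule selects are not reported here. The comparison and the gene lists were chosen with earlier results of these data known.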

Additional observations from a re-analysis of the deposited data

Results flagged for a closer look

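A long intergenic RNA outside the protein-coding comparison, AC122818.3 (ENSMUSG00000117486, chromosome 17, 87464640 to 87473742, GRCm38), lies 7.76 Mb from Cyp1b1. It had 0, 0 and 2 counts in CYP1B1-/- at steady state, 41, 35, 47 and 74 in WT and 45, 39 and 30 in AhR-/-. The ratio of CYP1B1-/- to WT, from 2 and 197 counts and scaled for library size, was 0.0133 (exact 95% interval 0.00159 to 0.0485, counting error only). In an edgeR fit of all gene types its adjusted p was 0.00403, and the fitted log2 fold change of -5.93 depends on the prior count. After HDM it had 1, 0, 0 and 2 counts against 12, 2, 2 and 6 in WT, a ratio of 0.141 (exact 95% interval 0.0270 to 0.469).

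Of 47 sets of 4 libraries examined, 3 held 1 library far from the other 3, where chance gives about 1 in 20. WT replicate 4 had a log2 CPM of 8.12 for Ide, against 7.69 to 7.73 in the other WT libraries. WT replicate 1 had a mean log2 CPM of 4.52 for erythroid markers, against 0.454 to 1.07. WT replicate 4 had 17707000 total counts, against 10476829 to 11273312.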

How the results depend on the processing

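The steady-state count of 2 genes between CYP1B1-/- and WT was 5 with DESeq2, 8 with limma voom, 0 with the replicate block, 0 with the compared groups only, and 0 to 4 with 1 library left out. With the block and with the compared groups only, 359 and 509 genes had an unadjusted p under 0.05. It was 3 with the likelihood ratio test, without a filter and with all gene types, and 2 in the other settings. Between CYP1B1-/- and AhR-/- the count of 1 was 9 with the likelihood ratio test, 14 with DESeq2, 0 with the block, and 0 to 7 with 1 library left out. After HDM the count of 0 was 1 with the likelihood ratio test and 1 with DESeq2. The count of genes past the threshold in the gene lists, 2, was 0 with the block and with the compared groups only, and 0 to 3 with 1 library left out. Same-numbered CYP1B1-/- and WT libraries correlated at 0.113, -0.0205 and -0.000409 in their deviations, so the numbers were not shown to pair the libraries.

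Of 65 named genes tested under up to 20 alternatives, 3 changed sign. Ahr (0.02) was at -0.048 with the replicate block, -0.032 with voom, -0.027 without a filter, -0.013 without dominant genes, -0.058 with the covariate and -0.14 to 0.18 with 1 library left out (below 0 without CYP1B1-/- replicate 2 and without WT replicate 1 or 2). Cry1 (0.20) was at -0.27 with voom and -0.23 to 0.53 with 1 library left out (below 0 without CYP1B1-/- replicate 2). Ctss (-3.16) was at 0.011 with the covariate. The cause was not tested. Differences in genes near 3 counts, such as Cyp1a1 and Cyp1a2, were not detectable at this depth.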
